A study of Mus musculus with 12 samples.

Results

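The genes described here are the lysozyme genes Lyz1 and Lyz2 and a quartet commonly used to tell macrophage states apart, Arg1, Nos2, Chil3 and Retnla. They were taken by name, so 6 of the 27179 genes in the deposited count table are described, each in all 12 libraries. The libraries hold RNA of dendritic cells grown from the bone marrow of C57Bl/6 mice and of exosomes, small membrane vesicles, isolated from the medium of the same cultures. Marrow was grown for 7 days in medium with 10% fetal calf serum and, as a source of the growth factor GM-CSF, 10% X-63 supernatant, and no group received any other treatment. Wild-type (WT) cells and exosomes came from mice 33 and 42, both female, and mouse 46, a male. Cells and exosomes labelled double knock-out (DKO) for Sidt1 and Sidt2, which encode relatives of a nematode RNA transporter, came from males 151, 152 and 153. Each of the 4 groups thus held 3 libraries, 1 per mouse, and the sources used here do not give the ages of the mice. Genotype was partly confounded with sex. Extraction reagents differed between cells and exosomes, so the reagent and the compartment cannot be told apart. Marrow cultures grown this way can hold several myeloid cell types, and fewer cells of a type cannot be told apart from less RNA per cell.

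Lysozyme is a secreted enzyme that cuts the peptidoglycan of bacterial cell walls. Mice have a pair of neighbouring copies: Lyz2, the lysozyme of macrophages, neutrophils and other myeloid cells, and Lyz1, best known from the Paneth cells of the intestine. Arg1 encodes arginase, which turns arginine into ornithine and urea, and Nos2 encodes inducible nitric oxide synthase, which turns arginine into nitric oxide. Nos2 is a standard marker of classically activated macrophages, which follow interferon-gamma and microbial products. Arg1, Chil3 (the chitinase-like protein Ym1, which binds sugars) and Retnla (the secreted resistin-like protein RELM-alpha) are standard markers of alternatively activated macrophages, which follow interleukin-4 and interleukin-13. Chil3 is also made by neutrophils and their precursors.

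Lyz2 (chr10:117277541-117282272) and Lyz1 (chr10:117287795-117292868) lie on the minus strand of the GRCm38 assembly with 5522 bases between them. Their coding sequences of 444 bases differ at 22 positions. The coding part of exon 2, 165 bases with 6 differences, is shown to let a reader see how little separates the copies to which reads had to be assigned. Capitals mark the bases that differ, and both are read 5′ to 3′ from GENCODE transcripts on GRCm38.
Lyz1 (chr10:117291029-117291193): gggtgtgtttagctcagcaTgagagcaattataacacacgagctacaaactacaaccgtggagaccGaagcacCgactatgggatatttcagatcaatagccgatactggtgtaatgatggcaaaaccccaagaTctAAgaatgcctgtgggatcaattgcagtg
Lyz2 (chr10:117280641-117280805): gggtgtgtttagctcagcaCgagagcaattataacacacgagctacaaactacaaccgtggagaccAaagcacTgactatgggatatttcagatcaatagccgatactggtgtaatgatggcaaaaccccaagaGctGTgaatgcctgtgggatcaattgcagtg
The coding part of exon 3, 79 bases, is the same in both genes. The longest run without a difference was 118 bases, and 64 of the 1184 windows of 80 bases in the Lyz1 transcript, 5.41%, were also found in the Lyz2 transcript. Reads were 80 bases long and paired, so most Lyz1 reads cross a differing base. In the other direction, 64 of the 1237 windows in the Lyz2 transcript, 5.17%, were also found in Lyz1. Lyz1 was only 0.763% to 1.80% of the counts of the pair. Shared Lyz2 reads, if counted for Lyz1, could therefore make up much of the Lyz1 count, which was not tested. The sources used here do not say how reads that match both copies were counted, so the level of Lyz1, much the lower of the pair, is the less certain.

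The bases just before the start of each lysozyme gene are shown because the pair differed in level far more than their sequence does. These 141 bases are the longest stretch ending at the RefSeq gene start (GRCm38.p6) that is at least 90% identical without a gap, with 14 differences in capitals.
Lyz1 (chr10:117292869-117293009, minus strand): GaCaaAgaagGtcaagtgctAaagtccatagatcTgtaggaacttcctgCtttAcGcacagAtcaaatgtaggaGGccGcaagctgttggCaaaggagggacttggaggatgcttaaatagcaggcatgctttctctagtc
Lyz2 (chr10:117282273-117282413, minus strand): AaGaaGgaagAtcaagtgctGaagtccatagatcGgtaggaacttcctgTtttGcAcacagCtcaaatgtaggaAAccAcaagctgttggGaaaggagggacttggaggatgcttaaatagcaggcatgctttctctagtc
A motif of the C/EBP factors, TTNNGNAA on either strand, was searched in the 250 bases before the start and was present in 36.8% of 32851 promoters. Lyz2 had 1 match, starting at position -55, and 1 of its 8 bases differs in Lyz1, which had its own match at -209. Chil3 and Retnla each had 3 matches. The wider-spaced STAT6 motif, TTC and GAA with 4 bases between, was present in 5.85% of promoters and was found in Retnla, at -145. The STAT motif TTCNNNGAA, in 7.02% of promoters, was found in Chil3 at -172. The PU.1 motif GAGGAAGT, in 2.44%, was found in Retnla at -198, and the NF-kB motif, GGG and CC with 5 bases between, in 45.8%, was found in Chil3 at -231. Neither lysozyme promoter had an exact match of the STAT, STAT6, PU.1 or NF-kB motif as searched, and near matches were not counted. These matches describe letters only.

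The other members lie apart from each other: Arg1 at chr10:24915207-24927470, Nos2 at chr11:78920787-78960226, Chil3 at chr3:106147554-106167564 and Retnla at chr16:48842609-48844461. Chil3 also has a near copy, Chil4, in which 7.19% of its 80-base windows recur, whereas no such window of Retnla was found in Retnlg or of Arg1 in Arg2.

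Total counts were 7215083 to 32273898 per library. A count of 0 allows up to 3 counts, which were worth 0.0838 to 0.437 CPM (counts normalised for library size), and such limits, like the intervals below, hold counting error alone. Sidt2 was present at 169 to 323 CPM in the WT libraries and at 0.632 to 2.39 CPM in those labelled DKO, whereas Sidt1 went against the label, with 0 to 4 counts in the WT libraries and 309 to 1722 in those labelled DKO, which are therefore called by their label. On the first principal component of the 1000 most variable genes (59.4% of their variance) cells lay from -41.4 to -34.5 and exosomes from 24.8 to 65.5. Exosomes of mouse 33 stood apart on the second component (16.6%) at 57.1, against -26.7 to 12.7 for the other 11 libraries. Markers of dendritic cells summed to 7540 to 13214 CPM in cells and 2212 to 3893 CPM in exosomes, and those of macrophages to 2573 to 3291 and 2021 to 2396 CPM. Of the dendritic markers 11 of 15 tested were lower in WT exosomes than in WT cells and 12 of 14 in those labelled DKO, and of the macrophage markers 8 of 14 and 9 of 14. Over all genes 19.6% and 23.7% were called lower. Their part in the results below was not tested.

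The 6 genes spanned a very wide range of levels. Per kilobase of the deposited gene length, Lyz2 averaged 25301 CPM per kb in WT cells and ranked 1 or 2 among all genes in each cell library and 2 to 4 in each exosome library. It alone took 2.69% to 4.20% of all counts in cells and 2.75% to 3.81% in exosomes. Chil3 followed at a mean of 383 CPM per kb in WT cells and Lyz1 at 284, and their ranges of 313 to 505 and 148 to 361 overlapped. Arg1 averaged 66.3 CPM per kb with a range of 14.1 to 139, all below Lyz1. Retnla averaged 12.5 CPM per kb (9.77 to 16.8), which overlapped the lowest Arg1 library. Nos2 was last at 0.331 CPM per kb, with ranks of 11571 to 14334 over the cell libraries. In WT exosomes the means ran Lyz2 33607, Lyz1 257, Chil3 241, Arg1 54.3, Retnla 11.3 and Nos2 0.172 CPM per kb, and here Chil3 (98.7 to 367) fully enclosed the range of Lyz1 (244 to 267). In cells labelled DKO Chil3 averaged 459 and Lyz1 442 CPM per kb, again with overlapping ranges. The plot of levels by library shows all 72 values.

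**Figure D1:**
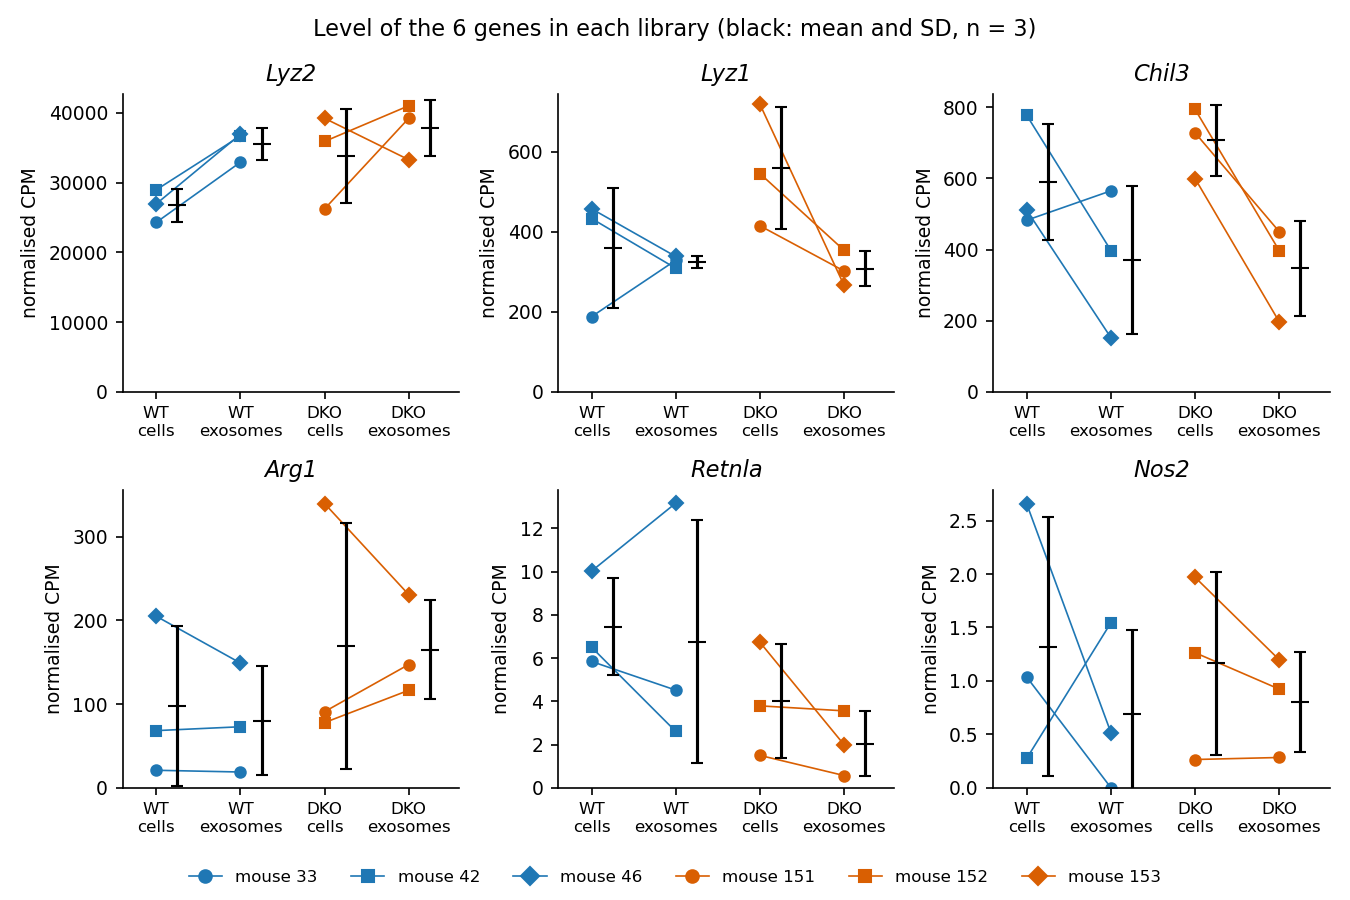
Normalised CPM (linear vertical axes from 0, a separate scale for each gene) of the 6 genes in cells and exosomes, with lines joining the 2 libraries of a mouse and black marks giving the mean and SD of 3 libraries. Lyz2 lies between 24300 and 41026 CPM and Nos2 between 0 and 2.65 CPM, and Arg1 varies more between mice than between compartments.

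Exosomes were compared with the cells that shed them to see which of these transcripts differ between the compartments. Of the 6 genes, 1 was higher (Lyz2) and none lower in WT exosomes by edgeR's quasi-likelihood test with Benjamini-Hochberg adjustment, against 18.7% of all tested genes called higher and 19.6% called lower. Among libraries labelled DKO none was higher and 2 were lower (Lyz1 and Chil3), against 23.7% called in each direction over all genes. The members' counts are thus close to these background shares. Arg1, Nos2 and Retnla passed the threshold in neither genotype.

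Lyz2 was measured at 24300, 28972 and 26958 CPM in WT cells of mice 33, 42 and 46, and at 32933, 36692 and 36941 CPM in their exosomes. Each WT exosome library was above every WT cell library. The log2 fold change was 0.43 ± 0.14 (SE, n = 3 per group) with an edgeR adjusted p of 0.0494, a 1.34-fold difference at the edge of the threshold. With the mouse as a block the value was again 0.43 but the adjusted p was 0.0589, and scaling by total counts gave 0.05 with an adjusted p of 0.815. That scaling moved the median of all genes from -0.02 to -0.39. A change of scaling shifts all genes by about the same amount. The distance of Lyz2 from the median gene is thus kept by construction and is no support for the call. Leaving out the cells of mouse 33, 42 or 46, or the exosomes of mouse 42 or 46, gave an adjusted p of 0.107 to 0.21, and leaving out both libraries of mouse 33 gave 0.40 with an adjusted p of 0.0244. As a share of all counts Lyz2 was 2.69%, 3.29% and 3.01% in WT cells and 2.75%, 3.42% and 3.15% in their exosomes, so it was slightly higher in exosomes within each of the 3 mice while the groups overlapped. In the libraries labelled DKO it stood at 26237, 35910 and 39221 CPM in cells of mice 151, 152 and 153 and at 39236, 41026 and 33282 CPM in exosomes. These overlapped, with a log2 fold change of 0.17 ± 0.19 and an adjusted p of 0.499. By mouse, exosomes held more Lyz2 than cells in 5 of 6, the exception being mouse 153 at 0.849 times the cell level.

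Lyz1 ran the other way in most mice. In cells it was at 188, 433 and 457 CPM in the WT mice and at 415, 545 and 719 CPM in mice 151, 152 and 153. In exosomes it was at 329, 309 and 338 CPM and at 302, 354 and 266 CPM. All 6 exosome libraries thus fell in a narrow band, whereas the cells varied nearly 4-fold, from mouse 33 to mouse 153. The difference labelled DKO was -0.86 ± 0.19 on the log2 scale (edgeR adjusted p 0.0032), and the exosomes lay below all 3 cell libraries. In WT it was -0.13 ± 0.31 (adjusted p 0.764). The ratio of exosomes to cells was 1.75 in mouse 33 and 0.370 to 0.739 in the other 5 mice. Without both libraries of mouse 33, a choice made after seeing the data, the WT difference was -0.45 with an edgeR adjusted p of 0.0149. This was the 1 call of Lyz1 in WT among 16 alternatives. The exosomes of mouse 33 stood apart on the second component, but for Lyz1 it was its cells that differed from the other WT mice. The difference between the genotypes' contrasts, tested as an interaction over all 12 libraries, was -0.72 ± 0.39 (adjusted p 0.715).

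Because the copies share sequence, their counts were also read together. Lyz1 made up 0.767%, 1.47% and 1.67% of all lysozyme counts in WT cells and 1.56%, 1.50% and 1.80% in cells labelled DKO. The share was 0.988%, 0.834% and 0.907% in WT exosomes and 0.763%, 0.855% and 0.794% in those labelled DKO. The exosomes all lay under 1%, as did the cells of mouse 33 alone among cells. The 95% Wilson intervals of single libraries were far narrower than these differences, for example 1.44% to 1.50% in the cells of mouse 42 and 0.814% to 0.855% in their exosomes. They do not cover reads assigned to the wrong copy. The share in exosomes minus that in cells averaged -0.603 percentage points (SD 0.426 over 6 mice), with a lower share in 5 of 6 mice and an exact two-sided sign-flip permutation p of 0.0625, where the smallest possible was 0.0312. Between genotypes the share differed by 0.315 points in cells (exact permutation p 0.4) and by -0.106 points in exosomes (exact permutation p 0.2), where 3 against 3 cannot go below 0.1. Without mouse 33 the exosome-cell difference was -0.768 points and the genotype difference in cells 0.0474 points. With the lysozymes summed into 1 gene, the exosome-cell difference was 0.42 in WT (adjusted p 0.0527) and 0.15 labelled DKO (adjusted p 0.532), which is the course of Lyz2. The Paneth markers Defa24 and Defa21 had no count in any library, and the 6 Paneth markers summed to at most 1.17 CPM.

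**Figure D2:**
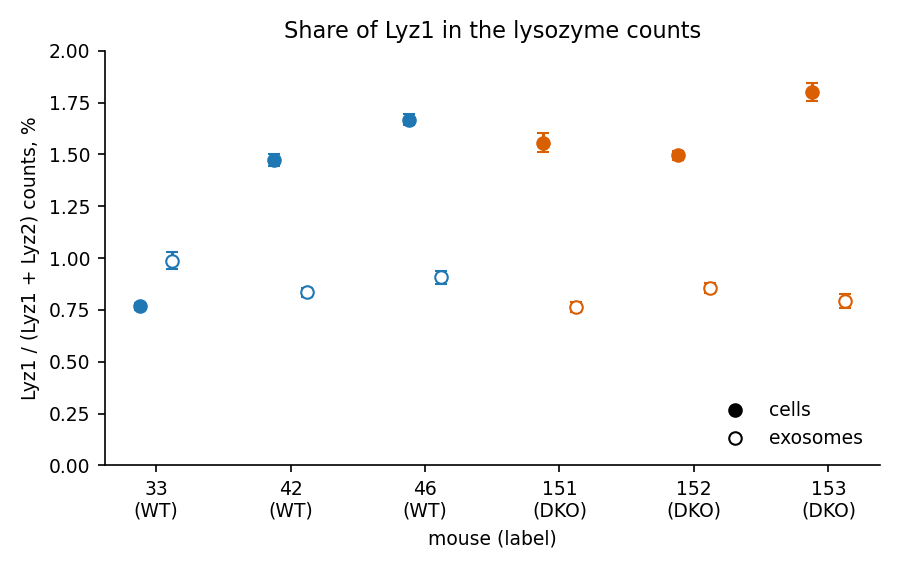
Lyz1 as a percent of Lyz1 plus Lyz2 counts (linear axis) in cells (filled) and exosomes (open) of each mouse, with 95% Wilson intervals. Exosomes lie between 0.763% and 0.988%, and cells between 1.47% and 1.80% except for mouse 33 at 0.767%.

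Arg1 differed more between mice than between compartments. In cells it was at 20.9, 68.2 and 205 CPM in mice 33, 42 and 46 and at 90.9, 77.8 and 339 CPM in mice 151, 152 and 153. In exosomes it was at 18.8, 72.9 and 149 CPM and at 147, 116 and 231 CPM in the same order. Mouse 33 was lowest and mouse 153 highest in both compartments, a more than 10-fold span. The females, mice 33 and 42, lay below every male in cells and in exosomes. The part of sex in this order was not tested. Exosomes carried 0.679 to 1.62 times the cell level, with a log2 difference of -0.28 ± 0.86 in WT (adjusted p 0.82) and -0.04 ± 0.59 labelled DKO (adjusted p 0.968). These edgeR fits did not pair the libraries of a mouse, so their errors hold the spread between mice. Within mice 33, 42 and 46 the log2 differences (0.05 CPM added) were -0.15, 0.09 and -0.46. Within mice 151, 152 and 153 they were 0.70, 0.58 and -0.56. Over the 6 mice the log2 levels of cells and exosomes, with 0.05 CPM added, had a Pearson r of 0.927 (exact permutation p 0.00278, adjusted over the 6 genes 0.0167). All 6 mice had the same order in both (Spearman rho 1, exact permutation p 0.00278, adjusted 0.0167). Without the 2 mice farthest from the median in cells r was 0.673 over 4 mice, and after taking off the mean of each genotype it was 0.941 over 6. For the other members the adjusted permutation p of Pearson's r ran from 0.15 to 0.928. Retnla had an r of 0.841 (exact permutation p 0.05, adjusted 0.15; rho 0.486, exact permutation p 0.356), which rested on the 2 mice farthest from the median, since r was -0.512 without them. Leaving out the 2 farthest mice turned r from -0.39 to 0.922 for Lyz1 and moved it from 0.31 to 0.902 for Chil3, from 0.083 to 0.56 for Lyz2 and from -0.011 to 0.584 for Nos2, so over so few mice these relations rest on single animals.

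Nos2 was near the limit of detection. It had 37, 6 and 95 counts in WT cells and 3, 42 and 19 in cells labelled DKO. WT exosomes gave 0, 32 and 5 counts and exosomes labelled DKO 4, 14 and 9, which leaves every library at or below 2.65 CPM. The groups overlapped throughout. Summed over 3 libraries, the 138 counts in WT cells came to 1.65 CPM before normalisation (95% exact Poisson interval 1.39 to 1.95) and the 37 in WT exosomes 0.885 (0.623 to 1.22). These intervals ignore the spread between mice. The edgeR log2 differences of exosomes against cells, -0.75 ± 1.04 in WT (adjusted p 0.596) and -0.59 ± 0.75 labelled DKO (adjusted p 0.545), had errors as large as themselves. The balance of the arginine-using enzymes, the log2 ratio of Arg1 to Nos2 per kb with 0.5 counts added to each, was positive in all 12 libraries, from 5.75 to 10.3. It was higher in exosomes by 0.83 (SD 1.97, higher in 5 of 6 mice, exact sign-flip permutation p 0.344). The exosomes of mouse 33 had no Nos2 count, so their ratio of 9.45 is set by the 0.5 added. Without mouse 33 the difference was 0.25, and without mouse 42, the exception, it was 1.45. Between genotypes it differed by 1.04 in cells and 0.57 in exosomes (exact permutation p 0.5 and 0.7).

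Chil3 was the most abundant of the quartet. WT cells held 482, 777 and 510 CPM, and cells labelled DKO held 728, 794 and 599 CPM. Exosomes held 565, 397 and 152 CPM in WT and 450, 397 and 197 CPM labelled DKO. The exosomes labelled DKO lay below every cell library of that label, with a log2 difference of -1.02 ± 0.25 (edgeR adjusted p 0.00614), close to a 2-fold decrease. In the fit on all 12 libraries the adjusted p was 0.0621. In WT the difference was -0.65 ± 0.43 (adjusted p 0.268), and the groups overlapped because mouse 33 had more in exosomes than in cells, 1.17 times. Without both libraries of mouse 33 it was -1.21 (adjusted p 0.224). The other 5 mice had 0.298 to 0.618 times the cell level in exosomes, and the interaction between genotype and compartment was -0.35 ± 0.56 (adjusted p 0.855).

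Neutrophil markers fell in the same order of mice as Chil3 among the exosomes of each genotype. Their 14 genes summed to 4622, 2929 and 1454 CPM in exosomes of mice 33, 42 and 46 and to 2529, 2338 and 1640 CPM in those of mice 151, 152 and 153. Over both genotypes together the order was not the same, since mouse 42 had a larger sum than mouse 151 but less Chil3. In cells the sums were 2155 to 3025 CPM in WT and 2497 to 2768 CPM labelled DKO. The order of Chil3 was kept in WT cells. It was not kept in cells labelled DKO, where mouse 151 had the largest sum and mouse 152 the most Chil3. The most abundant markers were Mmp8, S100a9 and S100a8, and S100a9 ran from 297 to 1678 CPM over WT exosomes. All 14 markers were above the limit of detection in each cell library, 11 in each WT exosome library and 8 in each exosome library labelled DKO. In exosomes against cells 0 of the 14 rose and 1 fell in WT (median 0.13), and 0 rose and 5 fell labelled DKO (median -0.63). Over all genes 18.7% were called higher and 19.6% lower in WT, and 23.7% in each direction labelled DKO. Their part in the Chil3 result was not tested.

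**Figure D3:**
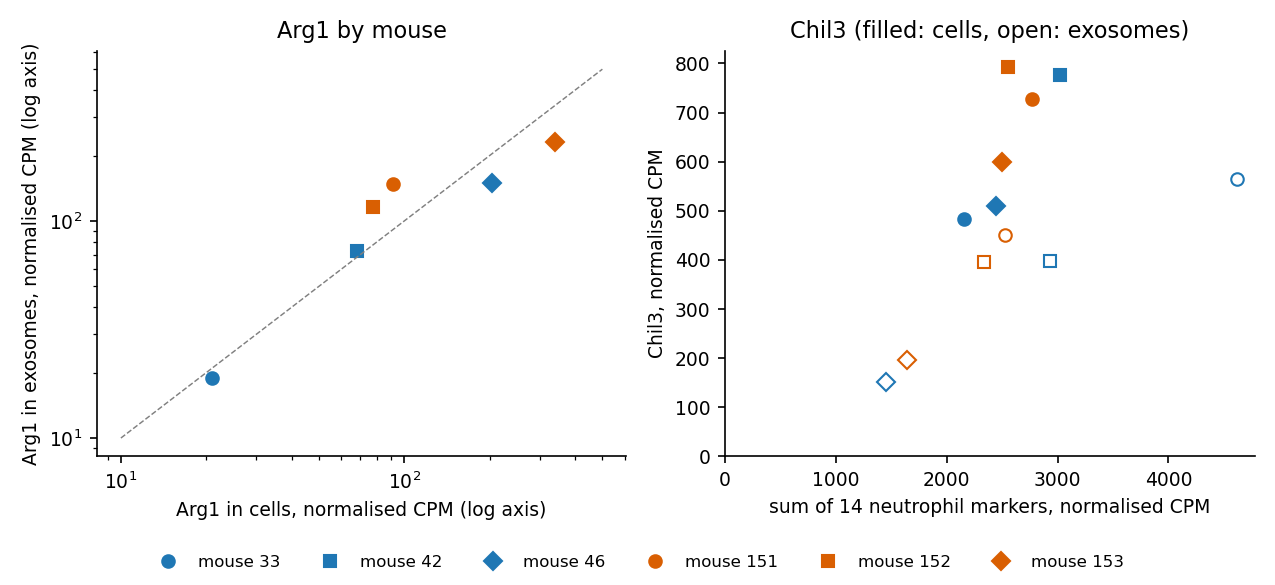
Left, Arg1 in cells against exosomes of the same mouse, both in normalised CPM on log axes, with a dashed line of equality. Right, Chil3 against the sum of 14 neutrophil markers, both in normalised CPM on linear axes, in cells (filled) and exosomes (open). The 6 mice keep their order of Arg1 in both compartments, and exosomes of mice 46 and 153 have the least Chil3 (152 and 197 CPM) and the smallest marker sums (1454 and 1640 CPM).

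Retnla was scarce. WT cells held 5.84, 6.50 and 10.0 CPM, and cells labelled DKO held 1.50, 3.79 and 6.74 CPM. In exosomes it was at 4.52, 2.61 and 13.2 CPM in WT and at 0.567, 3.56 and 2.00 CPM labelled DKO. Cells and exosomes overlapped in both genotypes. The log2 differences of exosomes against cells were -0.15 ± 0.56 in WT (edgeR adjusted p 0.855) and -0.95 ± 0.63 labelled DKO (adjusted p 0.244). Its related gene Retnlg, expressed in neutrophils, fell by 2.52 on the log2 scale in exosomes labelled DKO (adjusted p 0.0024) and was at 0.31 ± 0.78 in WT (adjusted p 0.778).

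The libraries labelled DKO were compared with WT to see whether the label went with the members' levels. In cells 0 of the 6 genes were called by edgeR, against 0.404% of all tested genes, and 1 (Lyz2) had an unadjusted p under 0.05. In exosomes 0 of 6 were called, against 0.0332% of all tested genes, and none had an unadjusted p under 0.05. DESeq2 and limma voom also called 0 of 6 in both comparisons. For the interaction edgeR called 0 genes in all, 0%, with 776 at an unadjusted p under 0.05 of which none was a member. DESeq2 called 0 there, and limma voom called 48, none of them a member.

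Lyz2 was 0.35 ± 0.16 higher on the log2 scale in cells labelled DKO (adjusted p 0.461), with mouse 151 inside the WT range, and 0.08 ± 0.16 in exosomes (adjusted p 0.859). Lyz1 differed by 0.65 ± 0.36 in cells and by -0.09 ± 0.16 in exosomes, with adjusted p of 0.556 and 0.837. Arg1 differed by 0.80 ± 1.12 in cells (adjusted p 0.828) and 1.02 ± 0.60 in exosomes (adjusted p 0.566), where mouse 151 and mouse 46 were nearly level. Retnla had the widest difference in size, -0.91 ± 0.42 in cells (adjusted p 0.472) and -1.72 ± 0.77 in exosomes (adjusted p 0.552), and its groups overlapped in both. Chil3 (0.27 ± 0.18 and -0.10 ± 0.45) and Nos2 (-0.21 ± 0.75 and 0.03 ± 1.16) had adjusted p of 0.605 to 0.995. Together the 6 genes took 2.77% to 4.38% of the counts of a library, nearly all of it Lyz2. That share was higher in exosomes labelled DKO than in WT exosomes in all 3, by 0.55 percentage points (exact permutation p 0.1, the smallest possible), and by 0.61 points in cells with overlap (exact permutation p 0.3). With mitochondrial genes and the 20 most abundant genes, members apart, taken out of the total, the exosome groups overlapped. The shares were then 5.08%, 5.20% and 4.47% in exosomes of mice 151, 152 and 153. In WT exosomes of mice 33, 42 and 46 they were 3.77%, 4.62% and 4.71%. The p-values above come from 3 mice per label and do not exclude differences of the sizes given by the errors.

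**Figure D4:**
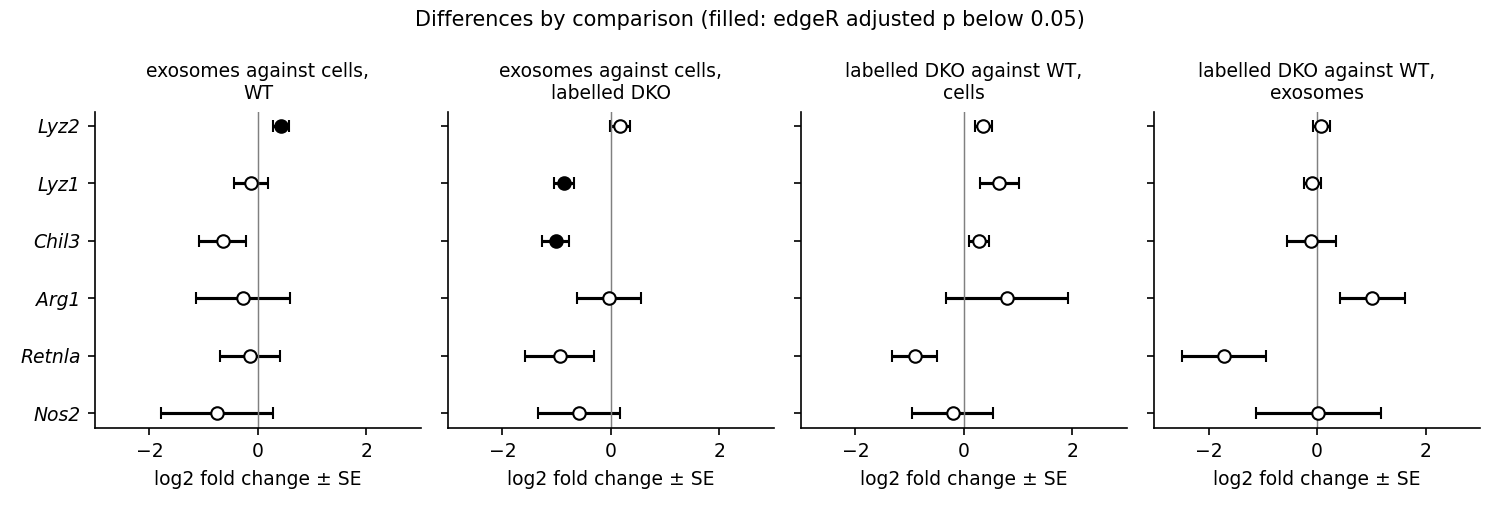
Log2 fold change (horizontal, linear) with its SE for the 6 genes in 4 comparisons, 3 libraries per group, filled where edgeR's adjusted p was below 0.05. The filled points are Lyz2 in WT exosomes (0.43) and Lyz1 and Chil3 in exosomes labelled DKO (-0.86 and -1.02), and no point is filled between genotypes.

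Companion genes give the setting of the members in each comparison, and their counts are to be read against the shares called over all genes, 18.7% higher and 19.6% lower in WT and 23.7% in each direction labelled DKO. Of 23 tested genes of classical activation other than Nos2, 0 were higher and 10 lower in WT exosomes (median log2 difference -0.86, against -0.02 over all genes), and 3 were higher and 11 lower among those labelled DKO (median -1.07, against -0.01). Il12b, a subunit of interleukin-12, fell, with log2 differences of -4.49 in WT and -5.17 labelled DKO (edgeR adjusted p 0.000594 and 1.84e-06). Cd86, a co-stimulatory molecule of antigen-presenting cells, fell, with -2.56 and -3.12 (adjusted p 0.000722 and 8.58e-07). Gbp2, an interferon-induced GTPase, fell, with -2.24 and -2.23 (adjusted p 0.00205 and 2.93e-06). Il12b is also among the dendritic markers, and Cd86 is widely used as a mark of mature dendritic cells.

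Of the alternative activation genes other than Arg1, Chil3 and Retnla, 3 of 25 tested were higher and 7 lower in WT exosomes (median -0.41), and 4 of 24 were higher and 10 lower among those labelled DKO (median -0.15). Ccl22, a chemokine that draws T cells and also a dendritic marker, fell, with -2.63 in WT and -3.29 labelled DKO (edgeR adjusted p 0.000325 and 2.09e-06). Clec10a, a lectin of macrophages and dendritic cells, fell, with -1.72 and -2.50 (adjusted p 0.000919 and 6.57e-07). Il1rn, the interleukin-1 receptor antagonist, rose by 1.36 and 0.95 (adjusted p 0.000854 and 0.000728). Members of both activation lists were thus lower more often than higher in exosomes.

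Of the arginine list 5 of 18 tested genes were higher and 3 lower in WT exosomes (median 0.26), and 7 higher and 3 lower among those labelled DKO (median 0.08). The WT counts lie near the shares over all genes, and the list as such was not tested. Downstream of arginase, Srm, the spermidine synthase, rose by 2.01 in WT and 2.09 labelled DKO (edgeR adjusted p 0.000926 and 1.49e-05). Odc1, which turns ornithine into putrescine, rose by 1.67 and 1.33 (adjusted p 0.00618 and 6.82e-05). Gch1 and Qdpr, which make and recycle the tetrahydrobiopterin that nitric oxide synthases need, rose by 1.35 and 1.23 in WT (adjusted p 0.00248 and 0.00213) and by 1.28 and 1.33 labelled DKO (adjusted p 0.000166 and 4.22e-05). Arg2, the mitochondrial arginase, fell, with -1.37 and -1.43 (adjusted p 0.0419 and 0.00439). Slc7a2, an arginine importer, fell, with -1.26 and -1.33 (adjusted p 0.0176 and 0.00055). Arg1 and Nos2 themselves, given above, passed in neither genotype.

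Among 19 transcription factors known to act on the members, 4 were higher and 7 lower in WT exosomes (median -0.41), and 6 higher and 7 lower among those labelled DKO (median -0.01). The myeloid factors Cebpb, Cebpa and Spi1 (PU.1) rose by 1.57, 1.38 and 0.89 in WT (edgeR adjusted p 0.0182, 0.00717 and 0.0204) and by 2.20, 1.65 and 1.27 labelled DKO (adjusted p 6.57e-07, 5.88e-06 and 2.33e-05). Fos, part of AP-1, fell, with -2.49 and -1.93 (adjusted p 0.000871 and 7.92e-06). Stat6, the factor activated by interleukin-4, missed the threshold in WT at -0.41 ± 0.20. Of the chitinase and resistin families 0 of 5 tested genes were called in WT, and 3 fell among those labelled DKO, namely Retnlg, Chil1 (-1.29) and Ctbs (-0.54). The sole tested lysozyme relative, Lyzl4, rose by 1.26 in WT and 0.96 labelled DKO (adjusted p 0.0176 and 0.0498). Between genotypes the 6 lists held 1 call in cells, Cd36, a scavenger receptor that was higher in those labelled DKO (adjusted p 0.0336), and 0 in exosomes.

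**Figure D5:**
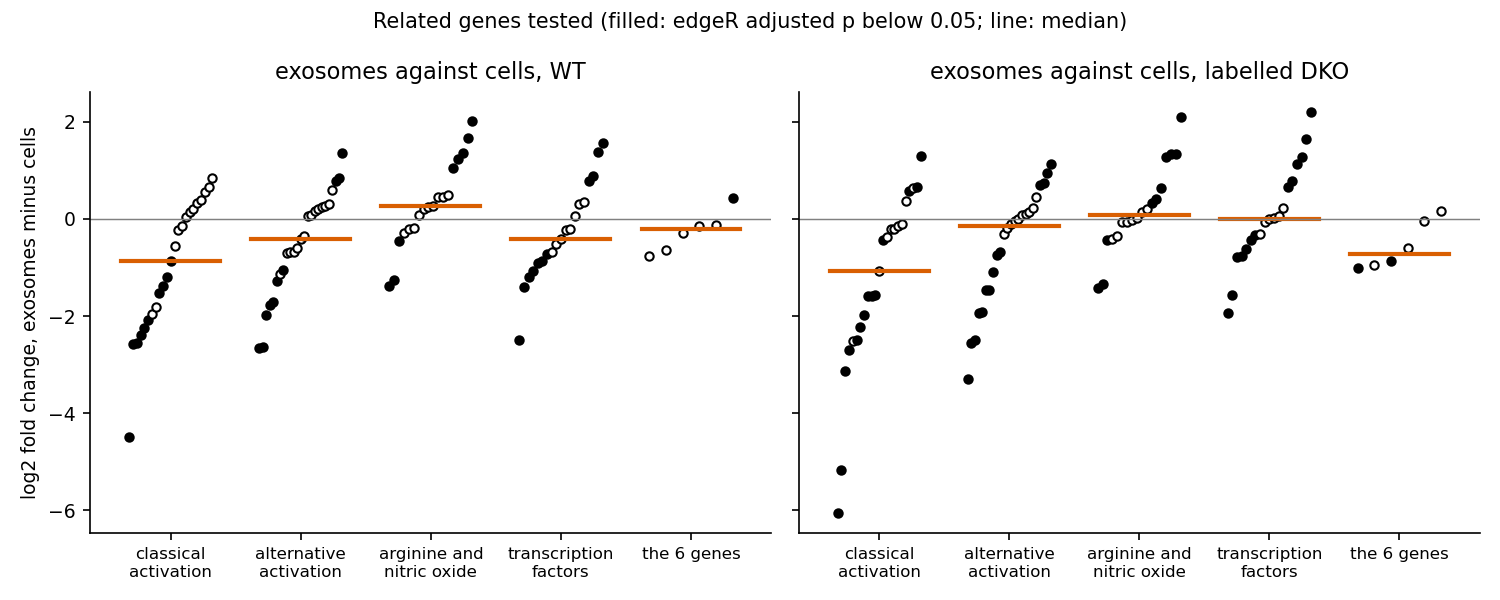
Log2 difference of exosomes minus cells (linear axis) for each tested gene of 4 lists and for the 6 genes, in WT and in libraries labelled DKO, filled where edgeR's adjusted p was below 0.05, with an orange line at each list's median. The classical list has medians of -0.86 and -1.07, and the arginine list medians of 0.26 and 0.08.

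For each member the genes with the most similar pattern were those with the highest Pearson r of log2 CPM over the 12 libraries after the mean of each compartment was taken off. They are given as a description, since all genes share the libraries. For Lyz2 they were Sirpb1c (r 0.93), Tmem141 (0.93) and Gtpbp8 (0.87), and for Lyz1 Psmc1 (0.95), Eif2s1 (0.93) and Cetn3 (0.93). Arg1 went with the cytokine gene Il1a (0.94), Ap3m1 (0.93) and Ctso (0.93). Chil3 went with Pdcd5 (0.96), Prom1 (0.91) and Stfa2 (0.90), and Retnla with Fcrls (0.93) and Bub1b (0.91). For Nos2 the values were 0.89 for Usp22 and 0.84 for Socs6 and Tor3a. Without mouse 33 these values were 0.78 to 0.82 for Lyz1, 0.78 (Il1a) to 0.87 for Arg1, 0.74 to 0.83 for Nos2, 0.83 to 0.92 for Lyz2, 0.89 to 0.96 for Chil3 and 0.91 to 0.94 for Retnla.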

How the data were processed

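The authors deposited raw counts for each gene, beside a gene length. Counting with featureCounts on the build mm10 is given per the submitters' processing notes. The aligner, annotation, strand setting and handling of multi-mapping reads: not given in the sources used here. Symbols of 25275 of 27179 identifiers were matched to RefSeq (GRCm38.p6), and promoter sequences came from RefSeq for Lyz1, Lyz2, Chil3 and Retnla. Transcript and exon sequences came from GENCODE. Counts were fitted with edgeR 4.0.16 in R 4.3.3 (robust quasi-likelihood F test, filterByExpr with the groups, TMM scaling, Benjamini-Hochberg adjustment over all tested genes, threshold 0.05). Comparisons of 2 groups used the 6 libraries of those groups and the interaction all 12; all 6 members passed the filter in each fit. Levels are CPM under 1 TMM scaling of the 12 libraries. Single values were tested by exact permutation. Fits were checked on simulated counts with large known changes, the same dispersion in all genes and no differences between mice. Such counts are simpler than the data, so small differences and fits without the mouse were not checked by them.

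Both libraries of a mouse come from the same animal, so its number pairs them. The correlation of their deviations from the group means was 0.006, 0.078, 0.102, 0.147, 0.116 and 0.114 for mice 33, 42, 46, 151, 152 and 153. Within each group every pair of libraries differed by more than sampling noise. The alternatives were DESeq2 1.42.0 and its size factors, total-count scaling, no filter or 1 CPM in 3 libraries, limma voom (3.58.1) with quality weights, all 12 libraries in 1 fit, sex as a covariate, the mouse as a block, the lysozymes summed, each library left out, and, chosen after seeing the data, both libraries of mouse 33 left out. Named genes were the members, Sidt1 and Sidt2, the 3 nearest patterns per member, and up to 4 genes per list with the smallest p in a comparison; 1 result that this rule names is not reported here. Arg2, Slc7a2 and Stat6, Odc1, Cebpa, Cebpb and Spi1 in WT, and Il1rn labelled DKO, were named outside that rule after their values were seen. Members and lists were chosen with earlier results of these data known.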

Additional observations from a re-analysis of the deposited data

How the results depend on the processing

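Lyz2 in WT exosomes was called in 6 of 16 alternatives, with a log2 difference of 0.05 to 0.50 and an adjusted p of 0.00128 to 0.815. Lyz1 labelled DKO was called in 14 of 15 and Chil3 labelled DKO in 13 of 14 (adjusted p up to 0.0621). Between genotypes and for the interaction no alternative called a member. In WT, 0 members were called with DESeq2 size factors, total-count scaling, no filter, the mouse as a replicate block or the lysozymes summed, 3 with limma voom and 0 to 2 with libraries left out. Labelled DKO, 1 was called in the fit on all 12 libraries and 1 with the lysozymes summed. The block gave 1794 genes higher and 2043 lower in WT, and 3078 and 3227 labelled DKO. Total-count scaling gave 1114 higher and 4134 lower in WT, against 2400 and 2509.

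Genes called in WT exosomes against cells were 8297 with limma voom and 2284 (without cells of mouse 46) to 5708 (without both libraries of mouse 33) with libraries left out. Between genotypes in cells, 53 were called, against 202 with no filter, 192 with DESeq2, 208 with limma voom, 7 in the fit on all 12, 11 with sex as a covariate and 5 to 119 with a library left out. In exosomes, 4 were called, against 20, 33, 49, 15 and 14 in the same order and 3 to 144 with a library left out. For the interaction limma voom called 48.

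Turns of sign were all in differences that missed the threshold, except that Lyz1 labelled DKO was 0.15 with the lysozymes summed, where it takes the value of the sum (0.42 in WT, 0.081 between genotypes in exosomes). With limma voom Nos2 was 0.092 in WT exosomes, Arg1 0.65 labelled DKO, Lyz2 -0.042 and Nos2 -0.95 between genotypes in exosomes, and Nos2 -0.60 and Retnla 0.17 in the interaction. Arg1 labelled DKO was 0.24 with the block. With sex as a covariate Arg1 was -0.26 in cells and Chil3 1.18 in exosomes between genotypes, and Nos2 -0.15 in the interaction. Total-count scaling gave Lyz1 0.061 and Chil3 0.033, and the fit on all 12 Nos2 -0.020, between genotypes in exosomes.

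With libraries left out, WT exosomes against cells ranged from -0.45 to 0.079 for Lyz1, -1.05 to 0.86 for Arg1, -2.19 to 0.20 for Nos2 and -1.11 to 0.27 for Retnla. Arg1 labelled DKO ranged from -0.39 to 0.96, the latter without cells of mouse 153 and called (adjusted p 0.0185). Between genotypes in cells Arg1 ranged from -0.22 to 1.94 and Nos2 from -0.65 to 0.77. In exosomes Lyz1 ranged from -0.18 to 0.0041, Nos2 from -0.45 to 0.48 and Chil3 from -0.45 to 0.35. In the interaction Arg1 ranged from -0.89 to 1.25, Nos2 from -0.77 to 1.62, Chil3 from -0.73 to 0.20 and Retnla from -1.60 to 0.17. The combined share of the 6 genes differed between compartments by -0.138 to 0.205 points. The cause was not tested. Depth limits Nos2, with 0 to 95 counts per library.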

Other observations

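limma voom with quality weights called Retnla (-1.42, adjusted p 0.00726) and Chil3 (-0.74, adjusted p 0.0386) lower in WT exosomes, which edgeR did not. Lyz1 in cells had its lowest level and lowest share of lysozyme counts in mouse 33, the mouse whose cells also had the lowest Arg1 (20.9 CPM) and Chil3 (482 CPM).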
